A study of Homo sapiens with 24 samples.

Results

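HPNE cells that had received vesicles from PPCL-68 cells were compared with HPNE cells that had received the residual medium left over from vesicle isolation, with 3 libraries in each group. The comparison covered every gene whose mean FPKM (reads scaled by the length of the gene and the depth of the library) over the 12 HPNE libraries was at least 1, which kept 11503 of 48162 genes. The last genes inside that limit had mean levels of 1.0006, 1.0009 and 1.002 FPKM, and the first outside it had 0.99984, 0.99981 and 0.99886 FPKM. The whole study held 24 libraries from 2 recipient lines. hTERT-HPNE (here HPNE) is labelled a normal pancreas cell and carries the telomerase gene TERT, and HPDE-H6c7 (here HPDE) derives from duct epithelium of the pancreas. Each line was grown in serum-free keratinocyte medium to partial confluence in plate wells and then kept for 24 h under 1 of 4 conditions before total RNA was taken. The untreated group had fresh serum-free medium, the residual medium group had what remained once vesicles had been separated out, and the vesicle groups had 1e10 extracellular vesicles (EV) per well; their source was PPCL-68 cells or PANC-1, which is a carcinoma line of the pancreas. The labels name no other allele or agent for any group. Each recipient is a single immortalised line. The series calls its replicates biological but does not say whether they were separate cultures, so p-values measure the spread between these libraries, which may be technical.

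Extracellular vesicles are membrane-bound particles that cells release and that other cells take up, with their lipids, proteins and RNA. The title of the series names the unfolded protein response as the program of interest. That response has 3 sensors in the membrane of the endoplasmic reticulum (ER). PERK phosphorylates the translation factor eIF2alpha, so that general translation falls while the transcription factor ATF4 is made; ATF4 raises amino acid transporters, serine and asparagine synthesis and tRNA synthetases, and with its partner CHOP (gene DDIT3) the feedback genes TRIB3 and PPP1R15A. Other kinases also phosphorylate eIF2alpha, so this arm, the integrated stress response, can run without ER stress. IRE1 (gene ERN1) splices the messenger of XBP1, and ATF6 is cut in the Golgi; these factors raise ER chaperones and the machinery that removes misfolded proteins.

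Before the comparisons, libraries that stood apart were identified. The root mean square difference over the tested genes, on the log2(FPKM + 1) scale, was 0.138 between residual medium replicates 1 and 2 but 0.455 and 0.46 between each of these and replicate 3. Residual medium replicate 3 was closer to the PANC-1 EV libraries (0.394 to 0.401) than to its own group. Among the PPCL-68 EV libraries, replicates 2 and 3 differed by 0.149, and replicate 1 differed from them by 0.353 and 0.348. The other HPNE groups had such a library as well. Untreated replicate 3 differed from its mates by 0.326 and 0.334, and these from each other by 0.143. PANC-1 EV replicate 1 differed from its mates by 0.311 and 0.36, and these from each other by 0.164. Below, the pair of libraries that stood apart means only residual medium replicate 3 and PPCL-68 EV replicate 1. Both stay in the values below. A list's count without the pair follows its main count where it differs by more than 1.5 times in a direction or turns the balance. The 6 libraries held 29874928 to 42939612 reads assigned to genes, and 19797 to 21207 genes had at least 1 read.

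Markers of cell types were examined next. The summed level of 9 mesenchymal and HPNE markers was 1243, 1231 and 824 FPKM in the residual medium libraries and 608, 614 and 613 FPKM in the PPCL-68 EV libraries. Of the 8 tested, 5 fell (TERT, VIM, NES, THY1 and ENG) and 0 rose (62.5% called, against 39.9% of all genes), with 5 and 1 without the pair. CDH2, PDGFRB and ZEB1 were not called. CDH2 had 25.6, 29.7 and 27.2 FPKM with residual medium and 23.8, 59.0 and 61.6 FPKM with PPCL-68 EV. VIM, the intermediate filament vimentin, had 529, 539 and 273 FPKM with residual medium and 149, 192 and 182 FPKM with PPCL-68 EV. TERT had 443, 424 and 202 FPKM and 130, 179 and 171 FPKM, and 114, 124 and 200 FPKM untreated. Against untreated 1 of the 8 was higher and 5 were lower (median -0.58). Markers of epithelium and carcinoma were nearly absent in both groups, although the title of the series names epithelial cells; the same markers summed to 1870 to 3703 FPKM in the HPDE libraries. Their sum ranged from 5.21 to 8.65 FPKM with residual medium and from 6.11 to 8.51 FPKM with PPCL-68 EV, the epithelial adhesion gene EPCAM never exceeded 12 reads across the HPNE libraries, and CEACAM6 and TSPAN8 had 0 reads in all. Immune, endothelial, acinar and islet markers summed to less than 1 FPKM in each of the 6 libraries. In bulk RNA, fewer cells of a kind and less RNA per cell cannot be told apart.

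Of the 11503 genes tested, 4595 differed between PPCL-68 EV and residual medium at an adjusted p under 0.05 (39.9%), of which 2334 were higher with PPCL-68 EV (20.3%) and 2261 lower (19.7%). The difference was at least 1 on the log2 scale for 704 genes (6.12%), 291 of them higher and 413 lower. Without residual medium replicate 1 or 2 the genes that fell numbered 1379 and 1428, and without the 2 libraries that stood apart 2229 rose and 3058 fell. The median difference of all tested genes was 0.00. Of the 2334 higher genes, 1171 were also called higher than untreated, 100 were called lower and 1063 were not called. Of the 2261 lower genes, 1026 were also called lower than untreated, 49 were called higher and 1186 were not called. Residual medium itself was called lower than untreated for 993 of the higher genes. It was called higher than untreated for 936 of the lower genes. These comparisons share libraries. Log2 differences are of log2(FPKM + 1), so that fold changes of low genes come out too small. With so many genes called, each gene list is given as its count, often with its median, to be read beside the shares over all genes. The lists were written from general knowledge with earlier results of these data known, and genes named beyond the fixed rule were chosen after their values had been seen.

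**Figure D1:**
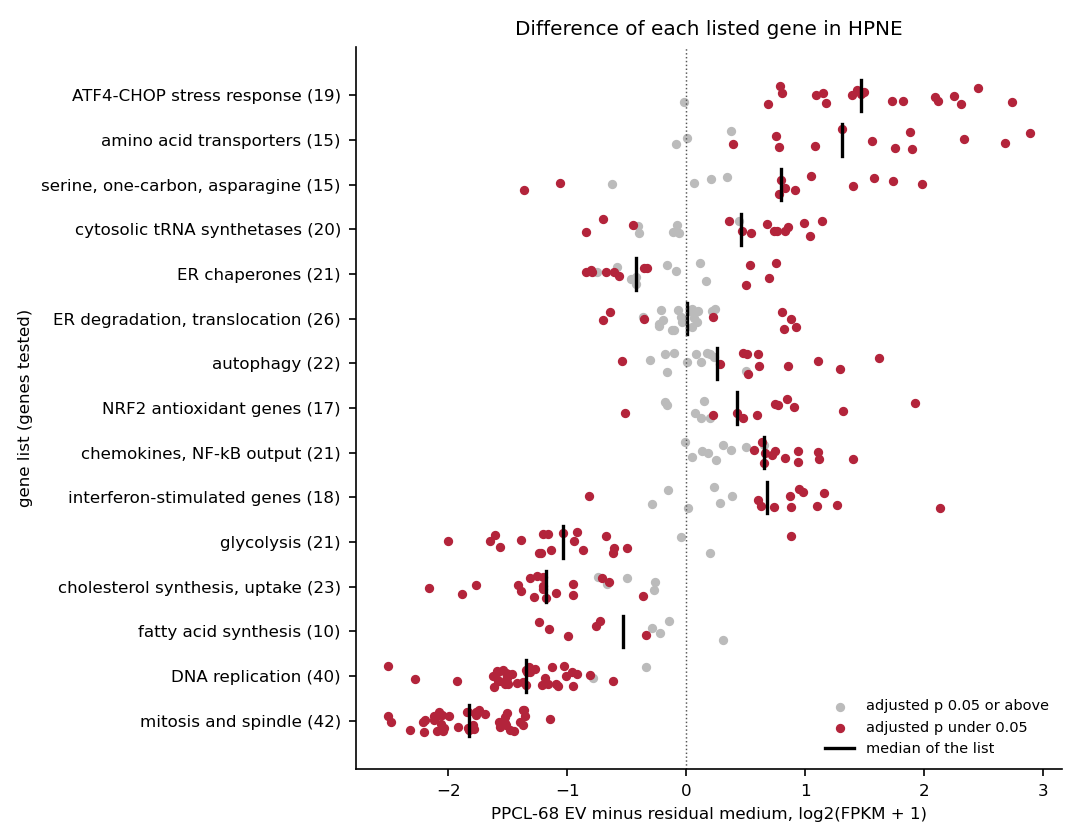
Each point is a tested gene of the list named on the vertical axis; the horizontal axis is its difference between PPCL-68 EV and residual medium in HPNE on the log2(FPKM + 1) scale, red where the adjusted p is under 0.05, with the list median as a black line. All but 1 gene of the ATF4-CHOP list lie to the right of 0 (median 1.47) and the mitosis list entirely to the left (median -1.83), while ER chaperones lie on both sides.

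The 6 genes fixed as markers of the unfolded protein response all rose with PPCL-68 EV, by 0.70 to 2.31 on the log2 scale. Other genes of that response did not all follow: of the ER chaperone list given below, 4 rose and 8 fell. HSPA5, which encodes the main ER chaperone BiP, had 313, 295 and 241 FPKM with residual medium and 481, 450.0 and 444 FPKM with PPCL-68 EV, a difference of 0.70 ± 0.16 (SE, adjusted p = 0.00655). DDIT3, which encodes CHOP, had 3.91, 4.43 and 10.3 FPKM with residual medium against 42.04, 25.9 and 20.2 FPKM, a difference of 2.12 ± 0.34 (SE, adjusted p = 0.000906). ATF3, a stress-induced transcription factor, had 2.76, 2.77 and 5.25 FPKM and 21.2, 21.8 and 20.5 FPKM, and its difference was 2.31 ± 0.19 (SE, adjusted p = 3.14e-05). In each of these genes the lowest PPCL-68 EV library was above the highest residual medium library, and for DDIT3 and ATF3 residual medium replicate 3 was the highest of its group. The messenger of ATF4 itself rose by 0.79 ± 0.20 (SE, adjusted p = 0.0109), from 125, 138 and 231 FPKM to 302, 259 and 264 FPKM. XBP1 rose by 0.92 ± 0.11 (SE, adjusted p = 0.000148), and HERPUD1, which serves the removal of misfolded ER proteins, by 0.88 ± 0.16 (SE, adjusted p = 0.00182). FPKM counts all XBP1 messengers and does not separate the spliced form.

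The ATF4-CHOP list had the highest median of the 35 pathway lists. Of 19 tested genes of the ATF4-CHOP list, 18 rose and 0 fell, with a median of 1.47; without residual medium replicate 3 and PPCL-68 EV replicate 1 together the count was again 18 and the median 1.69. TRIB3, a pseudokinase that restrains ATF4 and CHOP, had 13.2, 15.3 and 59.4 FPKM with residual medium and 198, 145 and 143 FPKM with PPCL-68 EV, and rose by 2.74 ± 0.45 (SE, adjusted p = 0.00102). PPP1R15A, the phosphatase subunit that restores translation by dephosphorylating eIF2alpha, was even within groups, at 50.7, 54.6 and 61.1 FPKM and 281, 328 and 316 FPKM, and rose by 2.46 ± 0.17 (SE, adjusted p = 1.32e-05). Among secreted products, the stress cytokine GDF15 rose by 2.25 and the glycoprotein STC2 by 1.40. CHAC1, which degrades glutathione, rose by 1.83, and SESN2, an inhibitor of mTORC1, by 2.09. TNFRSF10B, the death receptor DR5, rose by 1.17, from 33.4, 36.9 and 36.8 FPKM to 89.4, 81.1 and 75.3 FPKM. ATF5 was the member without a call: it had 10.8, 11.7 and 10.01 FPKM with residual medium and 14.4, 8.49 and 9.80 FPKM with PPCL-68 EV.

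Amino acid transporters rose as well. Of 15 tested amino acid transporters, 12 rose and 0 fell (median 1.31), and 13 rose without the pair of libraries that stood apart. SLC7A2, a transporter of arginine and other cationic amino acids, was 28.9 to 35.1 FPKM with residual medium and 161, 303 and 295 FPKM with PPCL-68 EV, a rise of 2.89 ± 0.21 (SE, adjusted p = 1.64e-05). SLC7A11, the cystine importer that feeds glutathione synthesis, rose by 2.69 ± 0.32 (SE, adjusted p = 0.000159), from 2.56, 3.42 and 6.72 FPKM to 23.2, 34.6 and 36.6 FPKM. The glycine transporter SLC6A9 had 1.40, 2.05 and 6.46 FPKM against 15.7, 18.8 and 20.5 FPKM. Of the large neutral amino acid transporter, the light chain SLC7A5 rose by 1.31 and the heavy chain SLC3A2 by 1.90; residual medium replicate 3, at 187 FPKM of SLC7A5, was close to the lowest PPCL-68 EV library, at 191 FPKM.

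Of 15 genes of serine, one-carbon, asparagine and proline synthesis, 9 rose and 2 fell (median 0.80). ASNS, asparagine synthetase, had 28.8, 35.8 and 97.7 FPKM with residual medium and 175, 199 and 192 FPKM with PPCL-68 EV, a rise of 1.99 ± 0.34 (SE, adjusted p = 0.00124). PSAT1 and PHGDH, which make serine, rose by 1.74 and 1.05, and the mitochondrial folate enzyme MTHFD2 rose by 1.58. The 2 that fell were SHMT1, the cytosolic serine hydroxymethyltransferase, by 1.36, and ALDH18A1, the first enzyme of proline synthesis, by 1.06. Cytosolic tRNA synthetases, which charge tRNAs with amino acids, were split into 11 that rose and 3 that fell of 20 tested, and without the pair 12 rose and 6 fell. YARS rose by 1.14 ± 0.15 (SE, adjusted p = 0.000333), from 39.9, 40.8 and 60.5 FPKM to 104, 103 and 102 FPKM, SARS by 1.04 and WARS by 0.99, while HARS, QARS and DARS fell by 0.84, 0.70 and 0.45. Of the 16 mitochondrial counterparts 1 rose and 5 fell (37.5%, near the 39.9% of all genes), and without the pair 0 rose and 7 fell.

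The promoters of listed genes were searched for the C/EBP-ATF composite element bound by ATF4 (TGATGNAA, on either strand), in the RefSeq windows of build GRCh38.p14 that run from 250 bases before to 50 after the start of a gene; 538 of 705 listed genes had a window. The element was in 3.67% of all 27305 windows and 1.62% of the windows of tested genes. It was found in 2 of 16 windows of the ATF4-CHOP list, 3 of 12 of amino acid transporters and 2 of 10 of the serine and asparagine list. Of these 7 carriers 6 rose, and MTHFD1L, a mitochondrial folate enzyme, was not called (0.06, adjusted p = 0.579). Cytosolic tRNA synthetases had only 2 windows, of which 0 held the element. Some other lists also held it, in 1 of 13 windows of mitochondrial tRNA synthetases, 1 of 12 of interferon-stimulated genes and 1 of 14 of p53 targets. Others had none, such as ER chaperones (0 of 18) and the cholesterol list (0 of 17). The stretches below are those of ASNS, CHAC1 and ATF3, which rose by 1.99, 1.83 and 2.31, and of MTHFD1L, read 5′ to 3′ in the sense of the gene with the element in capitals, which on CHAC1 lies on the opposite strand.
ASNS (chr7:97872454-97872491, minus strand): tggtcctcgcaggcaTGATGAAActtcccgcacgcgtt
CHAC1 (chr15:40953247-40953284, plus strand): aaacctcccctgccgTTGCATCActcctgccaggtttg
ATF3 (chr1:212565201-212565238, plus strand): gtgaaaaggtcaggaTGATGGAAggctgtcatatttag
MTHFD1L (chr6:150866342-150866379, plus strand): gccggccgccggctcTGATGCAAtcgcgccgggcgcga

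ER folding genes did not move as a block. Of 21 tested ER chaperones and folding enzymes 4 rose (HSPA5, DNAJB9, HYOU1 and ERO1LB) and 8 fell, and the median was -0.42; without the pair of libraries that stood apart, 3 rose and 12 fell. DNAJB9, a BiP cochaperone induced by spliced XBP1, had 13.5, 13.5 and 15.01 FPKM with residual medium and 30.8, 21.7 and 21.6 FPKM with PPCL-68 EV, a rise of 0.76 ± 0.13 (SE, adjusted p = 0.00112). In the other direction, ERO1L, the oxidase that drives disulfide formation, had 52.8, 52.4 and 52.7 FPKM and 34.1, 28.8 and 27.2 FPKM, and fell by 0.80 ± 0.13 (SE, adjusted p = 0.000872). P4HB, a protein disulfide isomerase, fell from 406, 395 and 388 FPKM to 263, 263 and 277 FPKM. CALR, the calcium-binding chaperone calreticulin, had 707, 675 and 463 FPKM and 303, 347 and 361 FPKM and fell by 0.84 ± 0.29 (SE, adjusted p = 0.0377), a call that was lost without residual medium replicate 1 or 2 or any PPCL-68 EV replicate (adjusted p 0.0673 to 0.123). PDIA4 fell by 0.79 ± 0.21 (SE, adjusted p = 0.0127), with adjusted p of 0.0537 and 0.0523 without residual medium replicate 1 or 2. HSP90B1 (GRP94) was not called, at 352, 341 and 264 FPKM against 286, 279.7 and 281 FPKM.

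Of 26 genes of ER-associated degradation and translocation, 5 rose and 3 fell (median 0.01), which was 30.8% and below the 39.9% of all genes. Without the pair of libraries the balance turned: 4 rose and 8 fell (median -0.07). Against untreated 12 were higher and 2 lower (median 0.18). Those that rose with all libraries were XBP1, HERPUD1, SEL1L, SEC63 and SPCS2. SEL1L, the scaffold of the HRD1 ubiquitin ligase, had 27.00, 27.9 and 32.2 FPKM with residual medium and 53.8, 52.6 and 49.7 FPKM with PPCL-68 EV, and the translocon partner SEC63 had 25.1, 26.1 and 26.8 FPKM and 43.5, 48.9 and 46.4 FPKM; in both genes the groups were far apart relative to their spread. Among the sensors, ERN1 rose by 1.58 ± 0.16 (SE, adjusted p = 7.37e-05), from 3.99, 4.28 and 4.16 FPKM to 13.6, 15.8 and 13.7 FPKM. PERK (EIF2AK3) and ATF6 had no call, and the eIF2alpha kinases EIF2AK1 (HRI) and EIF2AK4 (GCN2) fell by 0.51 and 0.37.

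The ER stress response element, CCAAT followed by 9 bases of any kind and CCACG on either strand, was in 5 of 18 windows of the ER chaperone list, against 0.158% of the windows of tested genes and 0.0806% of all windows, and in the window of XBP1. The genes that carry it differed in direction. HSPA5 and XBP1 rose by 0.70 and 0.92, CALR and CRELD2, a secreted ER stress factor, fell by 0.84 and 0.60, and CANX, calnexin, was not called (0.16, adjusted p = 0.197). HSP90B1, which holds 2 matches, was not called either (-0.17, adjusted p = 0.495). Their stretches are set out here with GRCh38.p14 positions, with the element in capitals, so that genes of opposite direction can be read side by side; on CALR, CRELD2 and the HSP90B1 match shown it lies on the opposite strand and reads as its reverse complement.
HSPA5 (chr9:125241376-125241424, minus strand): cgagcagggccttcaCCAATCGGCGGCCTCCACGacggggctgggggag
XBP1 (chr22:28800588-28800636, minus strand): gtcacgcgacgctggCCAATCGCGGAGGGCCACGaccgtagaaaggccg
CALR (chr19:12938369-12938417, plus strand): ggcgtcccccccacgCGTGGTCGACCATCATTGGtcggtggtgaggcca
CRELD2 (chr22:49918539-49918587, plus strand): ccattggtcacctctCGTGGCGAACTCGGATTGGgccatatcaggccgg
CANX (chr5:179698763-179698811, plus strand): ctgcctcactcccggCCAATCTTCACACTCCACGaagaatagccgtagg
HSP90B1 (chr12:103930306-103930354, plus strand): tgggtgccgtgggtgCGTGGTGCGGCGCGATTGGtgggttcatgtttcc

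**Figure D2:**
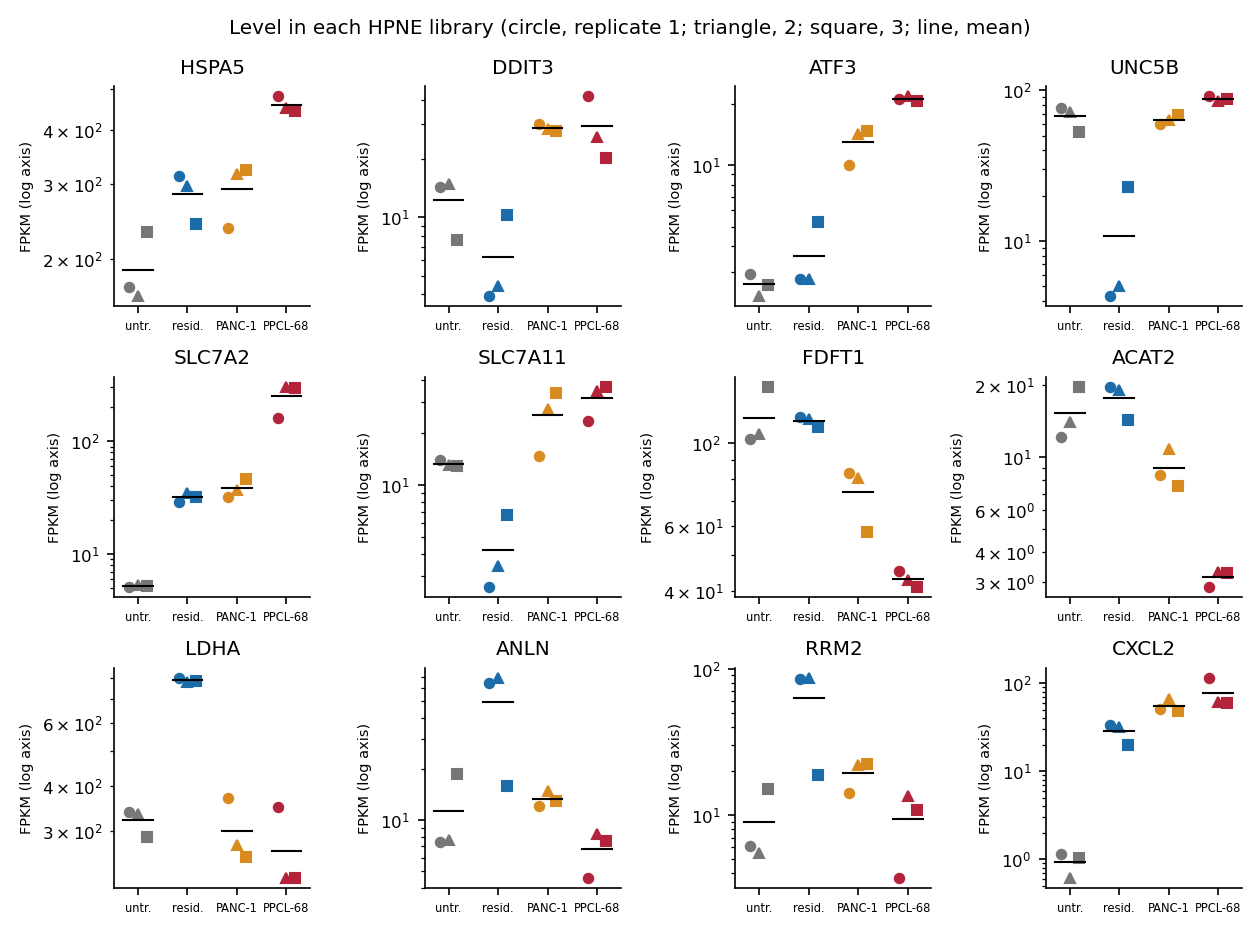
Each panel is a gene and each point an HPNE library, by condition (untr., untreated; resid., residual medium; PANC-1 and PPCL-68, vesicles), with FPKM on a log axis, symbols for replicates and a line at the group mean. Residual medium replicate 3 (square) lies between its mates and the PPCL-68 EV libraries for ANLN, RRM2 and UNC5B, and PPCL-68 EV stands apart from PANC-1 EV for SLC7A2 and ACAT2.

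UNC5B, a netrin receptor, had the largest rise of any named gene. It lies at chr10:72972327-73062621 (hg19) and had 4.30, 5.02 and 22.98 FPKM with residual medium, 91.8, 84.5 and 87.8 FPKM with PPCL-68 EV and 76.5, 72.4 and 53.3 FPKM untreated. The rise over residual medium was 3.28 ± 0.43 (SE, adjusted p = 0.000305), and the difference from untreated was 0.40 (adjusted p = 0.487). The other large rises included HIST1H2AC, a histone H2A gene, at 3.31, 2.59 and 7.04 FPKM and 32.1, 27.95 and 29.2 FPKM, and ADM2, which encodes the peptide intermedin, at 1.44, 1.75 and 5.97 FPKM and 15.4, 23.9 and 24.1 FPKM. AC079781.5, a locus with no symbol of its own, rose by 2.43. The largest fall was that of RGS4, which quenches G protein signalling, from 25.3, 24.5 and 5.58 FPKM to 1.46, 1.61 and 1.55 FPKM, by 2.69 ± 0.45 (SE, adjusted p = 0.00116). TMEM158, a membrane protein induced by RAS, fell by 2.56 ± 0.29 (SE, adjusted p = 0.000141), from 124, 109.8 and 71.6 FPKM to 16.2, 15.3 and 16.5 FPKM. Of the other 6 large falls, KIF20A, ANLN, KIFC1 and FAM83D serve the mitotic spindle or cytokinesis, RRM2 makes deoxynucleotides, and MPP4 is a membrane scaffold.

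Genes of sterol synthesis fell with PPCL-68 EV. Of 23 tested genes of cholesterol synthesis and uptake 18 fell and 0 rose, with a median of -1.18; without the pair of libraries that stood apart, 19 fell and the median was -1.25. ACAT2, which makes acetoacetyl-CoA at the head of the pathway, had 19.6, 19.1 and 14.3 FPKM with residual medium and 2.84, 3.31 and 3.26 FPKM with PPCL-68 EV, a fall of 2.16 ± 0.18 (SE, adjusted p = 2.86e-05). FDFT1, squalene synthase, had 117, 116 and 110.4 FPKM and 45.3, 42.9 and 40.99 FPKM and fell by 1.39 ± 0.15 (SE, adjusted p = 9.12e-05). In both genes residual medium replicate 3 was the lowest of its group, and the groups did not overlap. HMGCS1, which makes HMG-CoA, fell by 1.76 and the squalene epoxidase SQLE by 1.21. The 5 without a call were INSIG1, FDPS, PMVK, TM7SF2 and SC5D, all with negative differences, from -0.26 to -0.74.

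Neighbouring lipid genes were called in part. Of 10 fatty acid synthesis genes 6 fell and 0 rose: the desaturase FADS2 fell by 1.16 ± 0.13 (SE, adjusted p = 0.000148), from 113, 107 and 102 FPKM to 57.5, 43.3 and 42.8 FPKM, and ACLY, which supplies cytosolic acetyl-CoA, by 0.76. SCD had 83.2, 77.8 and 97.4 FPKM and 55.5, 29.7 and 27.4 FPKM, and its fall of 1.24 lost its call without residual medium replicate 1 or PPCL-68 EV replicate 2 or 3 (adjusted p 0.0549 to 0.0786). Of the transcription factors of sterol and fatty acid synthesis, SREBF2 fell by 0.37 and SREBF1 was not called. On the export side, ABCA1, the efflux pump that LXR induces, rose by 2.10 ± 0.48 (SE, adjusted p = 0.00613), from 2.30, 2.72 and 10.3 FPKM to 33.1, 16.7 and 17.03 FPKM, and NPC1, which moves cholesterol out of lysosomes, rose by 0.98 ± 0.08 (SE, adjusted p = 3.52e-05); the other 7 of 9 genes of that list had no call. Residual medium itself lay below untreated in this list, with 1 higher and 7 lower (median -1.67), and with PPCL-68 EV 1 were higher and 5 lower (median -1.18) against untreated. A sterol regulatory element (TCACCCCAC) was in 1 of 17 windows of the cholesterol list, that of SREBF2, against 0.376% of the windows of tested genes.

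Proliferation genes were lower than with residual medium in every member of the mitosis list. All 42 tested genes of mitosis and spindle fell, with differences from -1.14 to -2.51 and a median of -1.83, and 38 of 40 genes of DNA replication and nucleotide supply fell (median -1.35). Without the pair of libraries that stood apart the counts were 42 and 40, and the medians -2.23 and -1.54. ANLN, the cytokinesis scaffold anillin at chr7:36429415-36493400 (hg19), had 63.9, 68.7 and 15.96 FPKM with residual medium and 4.54, 8.31 and 7.54 FPKM with PPCL-68 EV, a fall of 2.48 ± 0.49 (SE, adjusted p = 0.00275). MKI67, the proliferation marker Ki-67, had 20.6, 20.1 and 3.91 FPKM and 1.01, 2.83 and 2.73 FPKM. RRM2, the ribonucleotide reductase subunit, had 84.5, 86.1 and 18.7 FPKM and 3.69, 13.5 and 10.8 FPKM and fell by 2.51 ± 0.59 (SE, adjusted p = 0.00696). In all 3 genes residual medium replicate 3 was far below its mates but still above the highest PPCL-68 EV library, so the groups did not overlap. Of 12 lamin and HMG protein genes 5 fell and 0 rose (41.7%, near the 39.9% of all genes), and without the pair 1 rose and 9 fell. LMNB1, lamin B1, had 22.3, 22.5 and 7.23 FPKM and 1.82, 3.99 and 4.19 FPKM.

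Against untreated cells the same genes gave another picture. In the direct comparison of PPCL-68 EV with untreated, 4891 genes were called (42.5%), 2151 higher (18.7%) and 2740 lower (23.8%), yet of the mitosis list 1 fell and 0 rose (median -0.19), and of the replication list 0 fell and 0 rose (median -0.09; limma had 2 of these at an unadjusted p under 0.05 and limma-voom called 0). MKI67 had 1.85, 1.96 and 6.78 FPKM in the untreated libraries. The residual medium group itself had a median of 1.57 over untreated for the mitosis list. By library, the list's median relative to untreated was 2.19, 2.20 and 0.37 with residual medium and -0.60, 0.05 and -0.09 with PPCL-68 EV, so that residual medium replicates 1 and 2 stood above all others. The untreated libraries themselves were at -0.31, -0.32 and 0.62. The comparisons share the PPCL-68 EV libraries and are given side by side for that reason.

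The cell cycle homology region (TTTGAA, on either strand), a site at the start of many genes that peak in mitosis, was in 25 of 36 windows of the mitosis list, against 9.64% of the windows of tested genes and 15.4% of all windows. A match is a description of the letters and not of binding. Shown are 4 carriers picked for their known roles in mitosis after values had been seen, not by size of fall, with the site in capitals and GRCh38.p14 positions: ANLN, CDC20 and PLK1, which fell by 2.48, 2.12 and 2.09, and CCNB2, cyclin B2, which fell by 1.52, less than the list median.
ANLN (chr7:36389827-36389861, plus strand): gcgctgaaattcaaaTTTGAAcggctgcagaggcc
CDC20 (chr1:43358901-43358936, plus strand): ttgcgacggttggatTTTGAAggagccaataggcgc
PLK1 (chr16:23678845-23678880, plus strand): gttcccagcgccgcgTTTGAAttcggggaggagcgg
CCNB2 (chr15:59105102-59105137, plus strand): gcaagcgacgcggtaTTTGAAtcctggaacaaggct

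**Figure D3:**
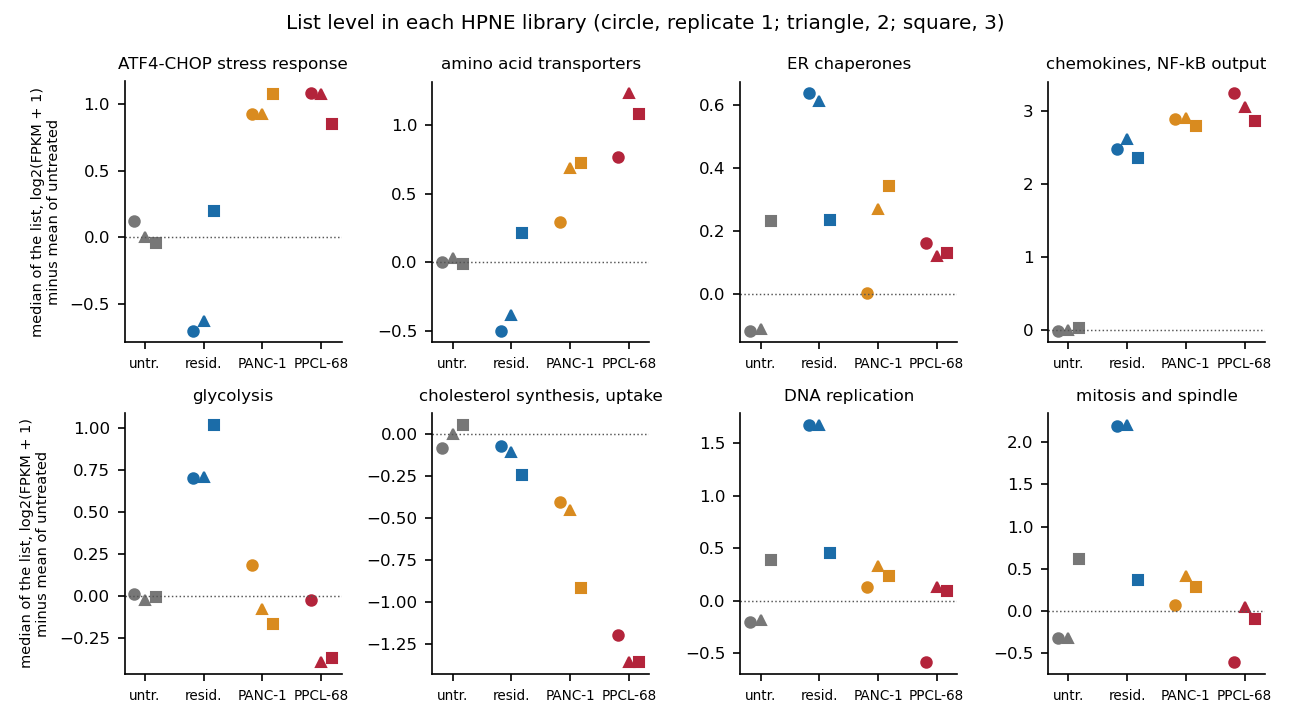
For 8 lists, each point is an HPNE library: the vertical axis is the median over the list's genes of log2(FPKM + 1) minus the mean of the untreated libraries, and the horizontal axis is the condition, with symbols for replicates. Residual medium replicates 1 and 2 are far above the rest for mitosis (2.19 and 2.20) while replicate 3 is at 0.37, and cholesterol synthesis is lowest in the PPCL-68 EV libraries (-1.20 to -1.36).

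Sterol genes, by contrast, were below both controls. Against untreated, 21 of 23 cholesterol genes fell and 0 rose (median -1.31). The ATF4-CHOP list had 13 of 19 higher than untreated and 0 lower (median 1.19); ATF3 had 2.94, 2.28 and 2.60 FPKM untreated and was 2.62 higher with PPCL-68 EV (adjusted p = 5.49e-06), while GDF15 had 37.3, 35.03 and 20.9 FPKM untreated and no call (adjusted p = 0.0962). HSPA5 was higher than untreated by 1.29 ± 0.16 (SE, adjusted p = 0.000152), with untreated levels of 172, 163 and 231 FPKM. ER chaperones as a list had 5 higher and 1 lower than untreated (median 0.12). In residual medium replicates 1 and 2 the chaperone list stood 0.64 and 0.61 above untreated, against 0.16, 0.12 and 0.13 with PPCL-68 EV.

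Glycolysis fell relative to residual medium. Of 21 tested genes, 18 fell, 1 rose and the median was -1.03. LDHA, lactate dehydrogenase A, was even at 800.2, 778 and 787 FPKM with residual medium, including replicate 3, and had 349, 221 and 222 FPKM with PPCL-68 EV, a fall of 1.61 ± 0.19 (SE, adjusted p = 0.000147). PGK1, phosphoglycerate kinase, had 204, 199 and 218 FPKM and 76.8, 65.5 and 66.1 FPKM and fell by 1.56 ± 0.09 (SE, adjusted p = 6.13e-06), and the neuronal enolase ENO2 fell by 2.01 ± 0.27 (SE, adjusted p = 0.000315). The exception was the glucose transporter SLC2A3, which rose by 0.88 ± 0.15 (SE, adjusted p = 0.00123). Against untreated, 7 fell and 5 rose (median -0.31); LDHA had 339, 334 and 289 FPKM untreated, with no call (adjusted p = 0.199). Of 17 hypoxia-induced genes 6 were lower and 1 higher (41.2%, near the 39.9% of all genes), with a median of -0.05. Without the pair 7 were lower and 2 higher, and the median was 0.05. Among single genes, PDK1, which keeps pyruvate out of mitochondria, fell from 12.2, 12.5 and 14.5 FPKM to 3.97, 3.22 and 3.07 FPKM. EPAS1, which encodes HIF-2alpha, rose by 1.05. Of 29 proteasome subunits, 15 fell and 4 rose (median -0.27), and without the pair 2 rose and 18 fell. Against untreated 10 were higher and 2 lower (median 0.11). Of all genes, 42.5% were called against untreated, 18.7% higher and 23.8% lower.

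Chemokine and NF-kB genes were above untreated with residual medium and with vesicles alike. Of 21 tested chemokine and NF-kB genes, 12 rose with PPCL-68 EV over residual medium and 0 fell (median 0.65); without the pair of libraries that stood apart 9 rose and 2 fell (CXCL5 and CSF2), and the median was 0.43. Over untreated, 20 of 21 rose (median 3.05). IL8, the neutrophil chemokine CXCL8, had 2.31, 2.64 and 4.70 FPKM untreated, 1799, 1818 and 859 FPKM with residual medium and 2817, 2333 and 2393 FPKM with PPCL-68 EV; its rise over residual medium was 0.83 ± 0.29 (SE, adjusted p = 0.0424). CXCL2 had 1.14, 0.602 and 1.03 FPKM, 33.6, 31.5 and 19.7 FPKM and 115, 61.01 and 59.4 FPKM in the same order, and rose over residual medium by 1.41 ± 0.26 (SE, adjusted p = 0.00204). In both genes each residual medium library was already above each untreated one. IL1B, interleukin 1 beta, rose over residual medium by 1.12 ± 0.25 (SE, adjusted p = 0.00501). PPCL-68 EV replicate 1 was the highest library of its group for CXCL2, NFKBIA (131 against 74.2 and 77.8 FPKM) and IL6 (42.1 against 14.4 and 11.5 FPKM), and IL6 had no call (adjusted p = 0.202).

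An NF-kB site (GGAATTTCC, on either strand) was in 8 of 18 windows of this list, against 0.448% of the windows of tested genes and 0.472% of all windows. The paralogs CXCL1, CXCL2 and CXCL3 all carry it, printed here with GRCh38.p14 positions and the site in capitals so that their flanks can be compared. CXCL2 and CXCL3 rose by 1.41 and 0.94, and CXCL1 had 177, 138 and 243 FPKM with residual medium and 470.1, 181 and 200.3 FPKM with PPCL-68 EV (adjusted p = 0.220). Reads could be split uncertainly between these close paralogs.
CXCL1 (chr4:73869300-73869338, plus strand): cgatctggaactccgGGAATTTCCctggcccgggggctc
CXCL2 (chr4:74099249-74099287, minus strand): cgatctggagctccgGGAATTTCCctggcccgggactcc
CXCL3 (chr4:74038744-74038782, minus strand): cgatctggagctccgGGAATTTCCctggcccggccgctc

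Interferon-stimulated genes rose in part: of 18 tested, 11 rose and 1, GBP1, fell (median 0.68). IRF1, a transcription factor of this response, had 7.82, 8.81 and 14.4 FPKM with residual medium and 62.4, 42.4 and 40.1 FPKM with PPCL-68 EV, a rise of 2.13 ± 0.21 (SE, adjusted p = 5.99e-05). IFIH1, the double-stranded RNA sensor MDA5, rose by 1.16 ± 0.16 (SE, adjusted p = 0.000446), and OAS2 by 1.27 from levels under 1 FPKM. IFIT1, MX1 and OAS2 varied within the PPCL-68 EV group, with replicate 1 lowest; OAS2 had 1.20, 3.97 and 3.03 FPKM. Of 18 p53 targets 7 rose and 1 fell (44.4%, near the 39.9% of all genes), and without the pair 8 rose and 3 fell. Against untreated 3 were higher and 8 lower (median -0.34), and residual medium had 2 higher and 13 lower (median -0.50). GADD45A, a stress sensor also induced without p53, had 40.8, 45.99 and 45.4 FPKM and 157, 202 and 194 FPKM and rose by 2.03 ± 0.22 (SE, adjusted p = 0.000103), and the BH3-only gene PMAIP1 (NOXA) rose by 1.64 ± 0.21 (SE, adjusted p = 0.000225), while MDM2 and BAX were not called.

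Autophagy and antioxidant genes rose in part over residual medium. Of 22 autophagy genes 10 rose and 1 fell, and against untreated 10 were higher and 3 lower (median 0.13). SQSTM1, the cargo receptor p62, had 103, 106 and 119.6 FPKM with residual medium and 343, 317 and 355 FPKM with PPCL-68 EV, a rise of 1.62 ± 0.10 (SE, adjusted p = 8.76e-06), and MAP1LC3B, the autophagosome protein LC3B, rose by 1.30 ± 0.14 (SE, adjusted p = 9e-05). Of 17 NRF2 genes 10 rose and 1, PRDX1, fell. Residual medium lay below untreated in that list, with 1 higher and 10 lower (median -0.54), and with PPCL-68 EV 5 were higher and 4 lower (median -0.23) against untreated. HMOX1, heme oxygenase 1, had 42.5, 54.9 and 44.4 FPKM and 84.3, 206 and 342 FPKM, spread widely within the vesicle group, and TXNRD1, thioredoxin reductase 1, had 86.9, 103 and 73.1 FPKM and 172, 246 and 245 FPKM. Of 15 heat shock chaperones 7 fell and 2 rose, and without the pair 13 fell and 1 rose: HSP90AA1 fell by 1.20 ± 0.22 (SE, adjusted p = 0.00169) and HSPA9, the mitochondrial mortalin, rose by 1.03 ± 0.10 (SE, adjusted p = 4.8e-05). Of 27 matrix genes 4 rose and 4 fell (29.6%, below the 39.9% of all genes), and without the pair 8 rose and 5 fell. Periostin (POSTN) rose from 41.5, 48.4 and 41.03 FPKM to 133, 185 and 153 FPKM and thrombospondin 1 (THBS1) fell from 294, 294 and 313 FPKM to 83.3, 114 and 118 FPKM. Among growth factors, EREG, the EGF receptor ligand epiregulin, rose by 1.41 ± 0.25 (SE, adjusted p = 0.00155). AREG, its relative amphiregulin, had 4.49, 4.68 and 45.03 FPKM and 82.6, 37.5 and 33.9 FPKM, groups that overlapped, and its call was lost without residual medium replicate 1 or 2 or PPCL-68 EV replicate 1 or 2 (adjusted p 0.0537 to 0.122). Of 78 ribosomal protein genes 6 fell and 0 rose, and without the pair 17 fell and 1 rose. In the same comparison limma called 0 of 13 genes of the mitochondrial genome, with 0 at an unadjusted p under 0.05 and 0 by limma-voom.

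PPCL-68 EV and PANC-1 EV were compared directly, since both were given at the same number of vesicles. Here 629 genes were called (5.47%), 259 higher with PPCL-68 EV (2.25%) and 370 lower (3.22%). This count moved widely with single libraries: it was 296, 149 and 394 without PANC-1 EV replicates 1, 2 and 3 in turn, 135 and 159 without PPCL-68 EV replicates 2 and 3, and 1860 without residual medium replicate 3 and PPCL-68 EV replicate 1 together. That last fit kept PANC-1 EV replicate 1, which was far from its mates. Of the cholesterol list 11 of 23 were lower with PPCL-68 EV and 0 higher (median -0.54). ACAT2 had 8.43, 10.8 and 7.59 FPKM with PANC-1 EV, and its level with PPCL-68 EV was lower by 1.25 ± 0.18 (SE, adjusted p = 0.00434). SQLE, IDI1 and HMGCS1 of the same list were not called between the vesicle sources; HMGCS1 ranged from 5.55 to 24.3 FPKM with PANC-1 EV.

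SLC7A2 had the largest excess over PANC-1 EV among genes called in both comparisons. It had 32.4, 36.97 and 46.6 FPKM with PANC-1 EV, near the residual medium level, and PPCL-68 EV was higher by 2.64 ± 0.21 (SE, adjusted p = 0.000667). Next came C15orf48, a mitochondrial protein gene induced in inflammation, at 2.23, 3.91 and 4.02 FPKM with PANC-1 EV against 15.3, 14.04 and 11.4 FPKM; NRCAM, a neuronal adhesion molecule, at 14.5, 18.6 and 20.5 FPKM and 46.9, 58.4 and 57.97 FPKM; and the cytokine IL32 at 10.6, 8.74 and 9.03 FPKM and 24.2, 28.04 and 27.7 FPKM. In none of these did the vesicle groups overlap. HSPA5 was higher than with PANC-1 EV by 0.66 (adjusted p = 0.0400), DNAJB9 by 0.87 (adjusted p = 0.00461) and SEL1L by 0.49 (adjusted p = 0.00736). Of the 19 ATF4-CHOP genes 1 was higher, PPP1R15A, by 0.66 (adjusted p = 0.0485), and the list median was 0.23; DDIT3 had 30.3, 28.5 and 27.7 FPKM with PANC-1 EV. Its difference between the sources was -0.04 ± 0.34 (SE, adjusted p = 0.966), and a p above the threshold does not show that the sources act alike.

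Genes lower than with PANC-1 EV included ANGPTL2, an angiopoietin-like secreted protein, which had 19.2, 17.02 and 11.8 FPKM with PANC-1 EV, 3.59, 3.49 and 4.10 FPKM with PPCL-68 EV and 2.45, 2.15 and 2.85 FPKM with residual medium, a difference between sources of -1.82 ± 0.15 (SE, adjusted p = 0.000667). SFRP1, a secreted Wnt antagonist, had 19.8, 59.9 and 42.3 FPKM and 4.15, 7.47 and 7.92 FPKM, RGS4 7.99, 10.9 and 8.43 FPKM and 1.46, 1.61 and 1.55 FPKM, and the matrix protein gene ADAMTSL1 3.78, 7.55 and 6.34 FPKM and 1.06, 1.73 and 1.66 FPKM. The last 3 calls were lost in turn without PANC-1 EV replicate 2 or 3 (adjusted p 0.063 to 0.158) or any PPCL-68 EV replicate (0.0511 to 0.13), for SFRP1 and RGS4 without PANC-1 EV replicate 1 (0.054 and 0.0704), and also with the replicate number as a block (0.0687, 0.0536 and 0.0573).

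The same vesicles were given to HPDE, and the difference between the effects of PPCL-68 EV in the 2 lines was tested as an interaction over 10483 genes expressed in both. It was called for 2410 genes (23%), 1220 with a higher effect in HPNE (11.6%) and 1190 with a lower effect (11.4%); without residual medium replicate 3 of HPNE the lower effects numbered 2109. In the ER folding lists, 14 of 20 ER chaperones had a lower effect in HPNE and 0 a higher one, with list medians of -0.42 in HPNE and 0.39 in HPDE, and 15 of 26 genes of ER-associated degradation and translocation had a lower effect (medians 0.01 and 0.53). These effects are relative to residual medium. In HPNE, residual medium itself was above untreated for 14 ER chaperones and below for 2 (median 0.54). Against untreated, PPCL-68 EV in HPNE had 5 higher and 1 lower (median 0.12), and in the degradation list 12 higher and 2 lower (median 0.18). Whether the lines differ in the vesicle effect or in the control was not tested. HSPA5 rose by 0.70 in HPNE and 1.24 in HPDE, a difference of -0.54 ± 0.18 (SE, adjusted p = 0.0309). P4HB fell by 0.57 in HPNE and had a difference of 0.63 in HPDE (interaction adjusted p = 1.09e-06). SEC24D, a coat protein of ER export, fell by 0.64 in HPNE and had a difference of 1.13 in HPDE (interaction adjusted p = 1.45e-09). The ATF4-CHOP list had 2 of 18 with a higher effect in HPNE and 0 with a lower one; DDIT3 had differences of 2.12 and 2.24.

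**Figure D4:**
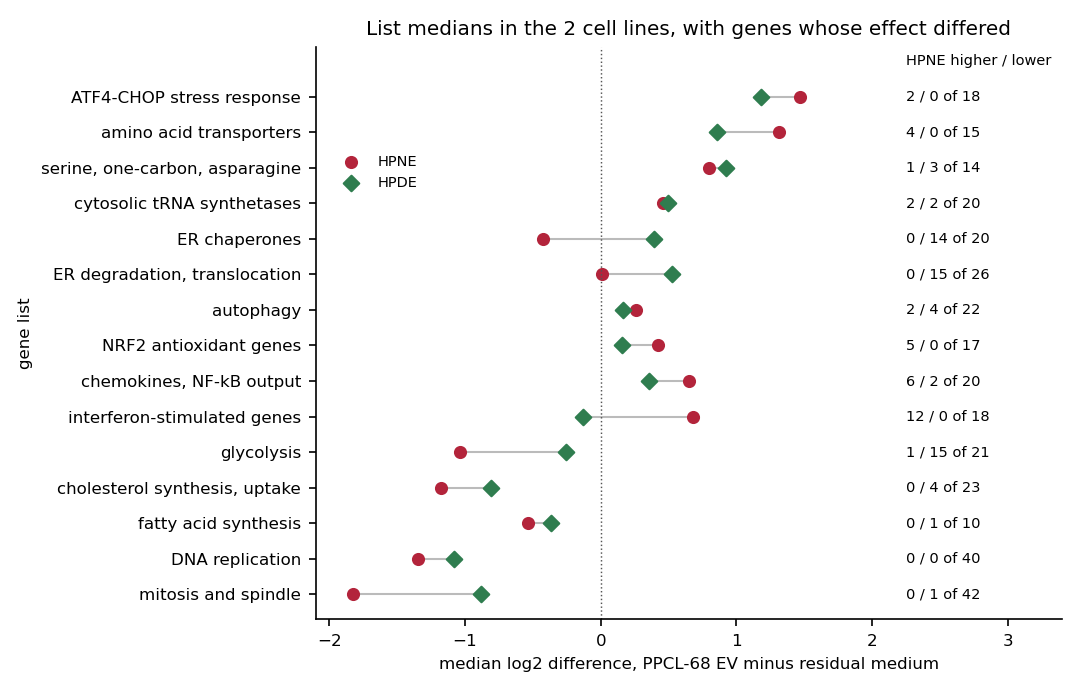
For each list, the red circle is the median log2 difference between PPCL-68 EV and residual medium in HPNE and the green diamond the same in HPDE; the numbers at the right count genes with a higher or lower effect in HPNE by the interaction test, of those tested in both lines. ER chaperones (-0.42 and 0.39) and interferon-stimulated genes (0.68 and -0.13) have medians of opposite sign. In HPNE the ER chaperone list was itself higher with residual medium than untreated (median 0.54).

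Interferon-stimulated genes went the other way: 12 of 18 had a higher effect in HPNE and 0 a lower one, with medians of 0.68 in HPNE and -0.13 in HPDE. IRF1 differed by 2.15 ± 0.23 (SE, adjusted p = 2.42e-06), with 2.13 in HPNE and -0.02 in HPDE. Of 21 glycolysis genes 15 had a lower effect in HPNE and 1 a higher one (medians -1.03 and -0.26). PGK1 fell by 1.56 in HPNE and had a difference of -0.66 in HPDE (interaction adjusted p = 1.14e-06). UNC5B and SLC7A2 had higher effects in HPNE, by 2.68 (adjusted p = 0.000331) and 2.22 (adjusted p = 2.37e-06), while of the cholesterol list 4 of 23 had a lower effect in HPNE and 0 a higher one (medians -1.18 and -0.81). In the mitosis list 1 of 42 interactions was called and in the replication list 0 of 40, with medians in HPDE of -0.89 and -1.08. By limma's unadjusted p under 0.05 the replication list had 2 interactions, and limma-voom called 2 of 40 there and 8 of 42 in the mitosis list after adjustment.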

How the data were processed

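RNA was sequenced from 24 libraries of 2 cell lines under 4 conditions, and the 12 HPNE libraries were used, with the HPDE libraries for the test between lines. The authors deposited FPKM values per gene; per the submitters' processing notes the tools CASAVA, STAR, HTSeq and DESeq2 and the build hg19 were used, with versions not given in the sources used here. Per the labels' protocols the library kit was non-directional, so reads from a gene and an overlapping antisense gene cannot be told apart. The FPKM values of each library were whole multiples of a per-read step for 100% of values (tolerance 0.01), which gave the reads per gene.

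Genes with a mean of at least 1 FPKM over the 12 libraries were kept (23.9%). Values were tested as log2(FPKM + 1) with limma 3.58.1 (limma-trend, R 4.3.3), with treatment group as the only term, 8 residual degrees of freedom and Benjamini-Hochberg adjustment over all genes tested, at a threshold of 0.05. Every adjusted p in the text is from limma. The effect in HPNE against that in HPDE was an interaction in 1 model over both lines. On simulated data with 200 changed genes of 11503 for PPCL-68 EV against residual medium, 75% of 2-fold and 91.5% of 3-fold changes were recovered. In these runs 12 and 8 unchanged genes were called. The simulation drew each gene independently, with no library whose genes shifted together, and changed far fewer genes than the 4595 called here. Its shares therefore cannot be carried over to the real comparison. The genes named were 6 unfolded protein response markers, the 8 largest rises and falls whose groups did not overlap, up to 3 called members of each list with the largest differences, and the 4 genes most above and below PANC-1 EV; others were chosen after their values were seen. Members and lists were chosen with earlier results of these data known.

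Same-numbered PPCL-68 EV and PANC-1 EV libraries deviated together from their group means (r = 0.565, 0.292 and 0.500), which pairs them by the rule used here, although no label says so. PPCL-68 EV and residual medium did not (r = -0.503, 0.506 and -0.448), and PPCL-68 EV and untreated had r = 0.492, -0.368 and 0.493. Replicate 1 stood apart in both vesicle groups. The main fit did not use the pairing, and 629 genes were called between the vesicle sources, against 550 with the replicate block. Other settings tried were no filter on low values, median-of-ratios size factors, a pseudocount of 0.1, only the libraries compared, the replicate block, limma-voom on the recovered reads, and each library left out in turn. Some members of the lists are counted but not reported by name here.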

Additional observations from a re-analysis of the deposited data

Results flagged for a closer look

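For 47 of the genes chosen by the naming rule the effect of PPCL-68 EV relative to residual medium differed between HPNE and HPDE by the interaction test in limma (adjusted p under 0.05), and the values here are the effect in HPNE minus the effect in HPDE on the log2 scale. Over all 10483 genes 2410 were called (23%). The rule chose most named genes for large differences in these same HPNE libraries, so the 47 cannot be read against that share. The effect was higher in HPNE for 23 of the 47. Classes of genes named below refer to these single genes and not to whole lists. Receptor, transporter and adhesion genes were above HPDE, UNC5B by 2.68, SLC7A2 by 2.22 and NRCAM by 1.01. Inflammatory and interferon genes were above HPDE, IRF1 by 2.15, IL1B by 2.10, BIRC3 by 1.34, OAS2 by 1.18, IFIH1 by 1.09 and C15orf48 by 0.90. Immediate-early, ERK feedback and junction genes were above HPDE, EGR2 by 1.83, KLF4 by 1.52, SPRY2 by 0.80 and AJUBA by 0.88. Stress and cell death genes were above HPDE, PMAIP1 by 1.55, GADD45A by 1.20, ATF3 by 1.13 and BBC3 by 1.03. Single genes of other lists were above HPDE, HIST1H2AC by 1.08, MTHFD2 by 0.69, ASAH1 by 0.63, SDCBP by 0.61, NPC1 by 0.51 and HSPA9 by 0.40. Their lists did not all share the direction: of 21 lysosome genes 2 had a higher effect in HPNE and 4 a lower one. The effect was lower in HPNE for the other 24. Glycolysis and hypoxia genes differed, ENO2 by -1.94, PDK1 by -1.71, ALDOC by -1.03, P4HA1 by -0.88, BNIP3 by -0.74 and LDHA by -0.68. ER genes differed, ERO1L by -1.14, PDIA4 by -0.81, ERN1 by -0.78, HERPUD1 by -0.58, HSPA5 by -0.54 and XBP1 by -0.43. Secreted and matrix genes differed, SFRP1 by -1.91, THBS1 by -1.49, LOXL1 by -1.37, FGF2 by -1.23, PLAUR by -0.57 and TIMP1 by -0.52. Autophagy genes differed, MAP1LC3B by -1.45 and SQSTM1 by -0.72. CDK inhibitors differed, CDKN2C by -0.99 and CDKN1C by -0.79. Metabolic and tRNA synthetase genes differed, ACAT2 by -0.70 and AARS2 by -0.64.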

How the results depend on the processing

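Against residual medium the count of genes called ranged from 3099 to 5404 over the fits that left out 1 library, and that of genes that fell from 1379 to 2962. By at least 1 on the log2 scale, limma-voom called 1121 genes, 515 of them higher, and a pseudocount of 0.1 gave 485 higher. The comparison with PANC-1 EV depended most on the settings: it gave 335 genes with no filter on low values (157 higher, 178 lower), 323 with only the libraries compared (124 higher, 199 lower) and 1860 without residual medium replicate 3 and PPCL-68 EV replicate 1 together (653 higher, 1207 lower). Leaving out 1 library in turn it gave 135 to 916 (53 to 291 higher, 82 to 625 lower). Genes with a lower effect in HPNE than in HPDE numbered 2146 without that pair of libraries and 918 to 2109 with 1 left out. A replicate block in the model gave 4521 genes against residual medium, 550 against PANC-1 EV, 4880 against untreated and 2336 for the interaction. The block ended 5 calls of named genes: F3 and ANGPTL2 against residual medium (adjusted p = 0.0524 and 0.0519) and SFRP1, RGS4 and ADAMTSL1 against PANC-1 EV. Other settings ended more. With no filter on low values, calls lost against residual medium included CALR, SCD, AREG and BIRC3 (adjusted p 0.0690 to 0.112). The same setting ended those of SFRP1, RGS4 and ADAMTSL1 against PANC-1 EV (0.0898 to 0.131). With only the libraries compared, CCND3, BIRC3, F3, AREG, RGMB and RPL39L lost theirs against residual medium. In limma-voom RGS4 against PANC-1 EV (0.0603) and ANGPTL2 against residual medium (0.0620) were not called. The cause of these losses was not tested. No called difference of a gene chosen by the naming rule changed sign under the alternatives run for it. The depth of 29874928 to 42939612 reads per library and 3 libraries a group limit the precision, and an exact permutation test of 3 against 3 could not go below 0.1.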
